A study of Rattus norvegicus with 15 samples.

Results

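miR-26a and miR-26b, listed on the array as rno-miR-26a and rno-miR-26b, are the 2 members of the miR-26 family among the 350 rat microRNAs (miRNAs) measured here. They were taken by name, with all 4 of their probes and without star forms, and the pair was chosen by an earlier reading of these same arrays, in which the signals of GF, DM and Veh hearts, and so the differences between the groups, were known. The differences between groups given below therefore describe the pair and support nothing on their own. The hearts came from male rats of the Sprague-Dawley strain and were read on 15 arrays of 1 colour, 5 in each of 3 groups. GF rats had diabetes induced by streptozotocin, a toxin of the insulin-producing beta cells, at 60 mg/kg into the tail vein, with plasma glucose above 300 mg/dL, and were then made to swing in glucose by 24 h without food and an intraperitoneal injection of insulin at 0.5 IU/kg. DM rats had the same streptozotocin diabetes without the fast and the insulin, and Veh rats received vehicle. The labels give no ages, name no chamber of the heart and do not say whether the 5 arrays of a group came from separate animals. The comparison asked how the heart's miRNAs under fluctuating glucose differ from those under steadily high glucose. GF differs from DM by the fast, by the insulin and by the glucose swing together, and these cannot be told apart.

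The miR-26 miRNAs are made from hairpins inside introns of the CTD small phosphatase genes and are produced in most vertebrate tissues. A miRNA guides Argonaute to messenger RNAs mainly through its seed, the bases near its 5′ end, and lowers their translation and stability. In mouse and human cells miR-26a represses the histone methyltransferase EZH2, and in the mouse heart it represses Kcnj2, which encodes a potassium channel that sets the resting potential.

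The mature sequences are shown because they set the pair's shared targets and the small difference that the probes must tell apart. They are RefSeq's for rat build GRCr8, matched by name to the array's older names, with the seed (bases 2 to 8) in capitals.
rno-miR-26a-5p: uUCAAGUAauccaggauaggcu
rno-miR-26b-5p: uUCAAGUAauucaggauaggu

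Both carry the seed UCAAGUA, and they were the only 2 of 724 mature rat sequences in the RefSeq table with it. Counted from the 5′ end, 19 of the first 21 positions were the same. The differences were C11U and C21U (the miR-26a base, the position, the miR-26b base), and miR-26a, at 22 bases, ended in 1 further base beyond the 21 of miR-26b. Both differences lie outside the seed. How far a probe for one miRNA also binds the other was not tested.

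The hairpins are shown to place the mature arm, here in capitals, within its precursor.
Mir26a: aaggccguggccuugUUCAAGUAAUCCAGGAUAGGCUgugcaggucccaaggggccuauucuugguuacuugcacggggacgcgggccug
Mir26b: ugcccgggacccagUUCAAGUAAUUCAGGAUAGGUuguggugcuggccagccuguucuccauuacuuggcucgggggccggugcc

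In GRCr8 the Mir26a hairpin lies at chr8:127633048-127633137 on the plus strand, inside the span of Ctdspl (chr8:127520478-127644999, also plus strand). The Mir26b hairpin lies at chr9:83425709-83425793 on the plus strand, inside the span of Ctdsp1 (chr9:83422755-83428411, plus strand). The table used gives gene spans only, so exons and introns were not looked up. The 2 miRNAs thus come from separate chromosomes and separate host genes, which encode related small phosphatases that act on the tail of RNA polymerase II.

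The arrays gave fewer independent samples than their number. In 5 of 105 pairs of arrays, both arrays belonged to 1 group and differed by less than the measurement error stated by the scanner software (reduced chi-square 0.245 to 0.634, against 1.07 to 7.75 for the other pairs), and each such pair was averaged and counted as 1 sample. That left 3 GF, 3 DM and 4 Veh samples. The labels do not say that these arrays repeat a sample, and this is read from their small differences alone. In pairs simulated with measurement error only, the reduced chi-square ran from 0.694 to 1.28. Some pairs kept apart here also lay in that range, such as Veh replicates 3 and 4 (1.07). So did DM replicate 1 with Veh replicate 5 (1.15), which are of different groups, so a small value does not by itself mark a repeat. Veh replicate 5 stood apart from the other Veh arrays, with reduced chi-squares of 3.27 to 4.12, and was nearest to DM replicate 1, at 1.15, so the main results are also given without it. Between 166 and 190 miRNAs were detected per array, no spot was saturated (0), and 165 miRNAs were tested. All 5 heart muscle markers (miR-1, miR-133a, miR-133b, miR-208 and miR-499) were above background on all 15 arrays, and the liver marker miR-122 was above background on none of them. Arrays were scaled to their 75th percentile, which before scaling averaged 2780 ± 529 in GF, 2027 ± 256 in DM and 2205 ± 261 in Veh samples (SD, n = 3, 3 and 4). The GF samples were therefore on average the brightest before scaling. In RNA of heart tissue, fewer cells of a type and less RNA per cell cannot be told apart.

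Both miRNAs were far above background on every array. Each has 2 probes of 10 spots, and all 4 probes were above background on all 15 arrays. The brighter probe stood for each miRNA, A_26_P00002571 for miR-26a and A_26_P00001229 for miR-26b. The coefficient of variation among its spots had a median over arrays of 6.37% for miR-26a and 4.20% for miR-26b. The other arm of the Mir26b hairpin, listed as rno-miR-26b*, was above background in 0 of 60 combinations of its 4 probes and the arrays. The scanner software still listed it as detected on 2 of 15 arrays. No level is given for it. The array holds no probe named for the other arm of Mir26a.

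miR-26a had the highest values in GF hearts, with log2 scaled signals of 13.83, 13.80 and 13.79 in the 3 GF samples, 13.75, 13.76 and 13.78 in the 3 DM samples, and 13.62, 13.62, 13.68 and 13.78 in the 4 Veh samples. Each GF sample lay above every DM and every Veh sample, but the lowest GF sample, at 13.791, was close to the highest DM sample, at 13.782. Single arrays of GF and DM overlapped, with DM replicate 2 at 13.813 and GF replicate 6 at 13.791. The DM samples overlapped the Veh samples through a single Veh sample, replicate 5, which lay within the range of the DM samples. The group means were 13.81 ± 0.02 in GF, 13.76 ± 0.02 in DM and 13.67 ± 0.07 in Veh (SD, n = 3, 3 and 4), so the whole range over the 10 samples was 0.21 on the log2 scale.

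miR-26b followed the same order, with 13.20, 13.21 and 13.12 in GF, 13.10, 13.03 and 13.12 in DM, and 12.94, 12.78, 12.92 and 13.05 in Veh samples. The GF samples all lay above the Veh samples, but GF replicate 6 lay below the highest DM sample. The group means were 13.18 ± 0.05 in GF, 13.08 ± 0.05 in DM and 12.92 ± 0.11 in Veh (SD, n = 3, 3 and 4), with a range of 0.43. GF above every Veh sample held for both miRNAs and for 7.27% of the 165 tested miRNAs. GF above every DM sample held for miR-26a, on its brighter probe only and not under every scaling, and for 1.82% of them. DM above every Veh sample held for neither miR-26a nor miR-26b and for 1.21%.

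**Figure D1:**
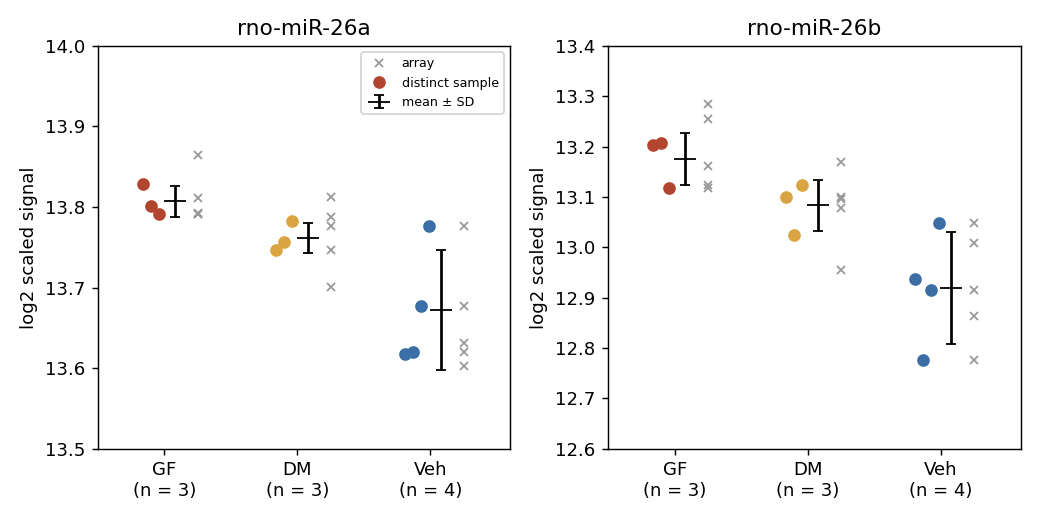
Log2 scaled signal of rno-miR-26a and rno-miR-26b by group, with coloured points for distinct samples (3 GF, 3 DM, 4 Veh), bars for mean ± SD and grey crosses for single arrays; the vertical axes do not start at 0. All 3 GF samples lie above all 4 Veh samples in both panels, and Veh replicate 5 is the highest Veh sample in both.

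miR-26b was 1.20-fold the Veh level in GF hearts (95% interval 1.06 to 1.35), a log2 difference of 0.26 with SE 0.08. The adjusted p of limma's fit over 165 miRNAs was 0.0666, above the threshold of 0.05. miR-26a was 1.10-fold the Veh level in GF hearts (0.992 to 1.22), a log2 difference of 0.13 with SE 0.07 and an adjusted p of 0.190. Neither miRNA was called in this contrast, in which 7.88% of the tested miRNAs were called, 5 higher and 8 lower in GF. The direction of the calls moved with the scaling: 15 were higher and 1 lower with the 75th percentile over all probes, 14 and 1 with hur control spots, 8 and 3 after quantile normalization, and 16 and 2 in unscaled data. miR-26b stood 21st and miR-26a 58th of 165 by p, and the median difference over all tested miRNAs was -0.05.

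When all 15 arrays were taken as independent, the same fit called both miRNAs higher in GF than in Veh, miR-26b by 0.27 (SE 0.06, limma adjusted p 0.00627) and miR-26a by 0.15 (SE 0.05, limma adjusted p 0.0204). That fit counts the close array pairs as separate samples, and it called 36.4% of all tested miRNAs. The size of each difference was much the same in both fits, and between them the call changed with how many samples were counted. Over the distinct samples the call of miR-26b also changed with the scaling and with the probe summary, as given in the closing section.

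DM hearts lay between GF and Veh hearts on average. Between DM and Veh, miR-26b differed by 0.16 (SE 0.08, 95% interval -0.01 to 0.34, limma adjusted p 0.546) and miR-26a by 0.09 (SE 0.07, interval -0.06 to 0.24, limma adjusted p 0.621), and neither was called. limma called 0% of the tested miRNAs in this contrast over distinct samples, with 14 at an unadjusted p under 0.05, and 1.82% over 15 arrays, where the pair was again not called. Over 10 samples miR-26a in DM minus Veh was the one difference whose direction changed with the scaling: it was -0.04 with no scaling, -0.02 with quantile normalization and -0.05 when the authors' deposited values, which are not scaled, were fitted. After quantile normalization Veh replicate 2 was at 13.86, and every other Veh sample and every DM sample was at 13.77. The -0.02 therefore rests on Veh replicate 2 alone.

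Between GF and DM, miR-26b differed by 0.09 (SE 0.08, 95% interval -0.09 to 0.28, limma adjusted p 0.679) and miR-26a by 0.05 (SE 0.07, interval -0.11 to 0.20, limma adjusted p 0.803). limma called 0% of the tested miRNAs here over distinct samples, with 18 at an unadjusted p under 0.05, and 3.64% over 15 arrays, and neither miRNA of the pair was among them. The comparisons of GF and of DM with Veh share the 4 Veh samples. These intervals still include log2 differences of 0.20 for miR-26a and 0.28 for miR-26b, so these samples do not separate a difference of that size between GF and DM from 0.

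**Figure D2:**
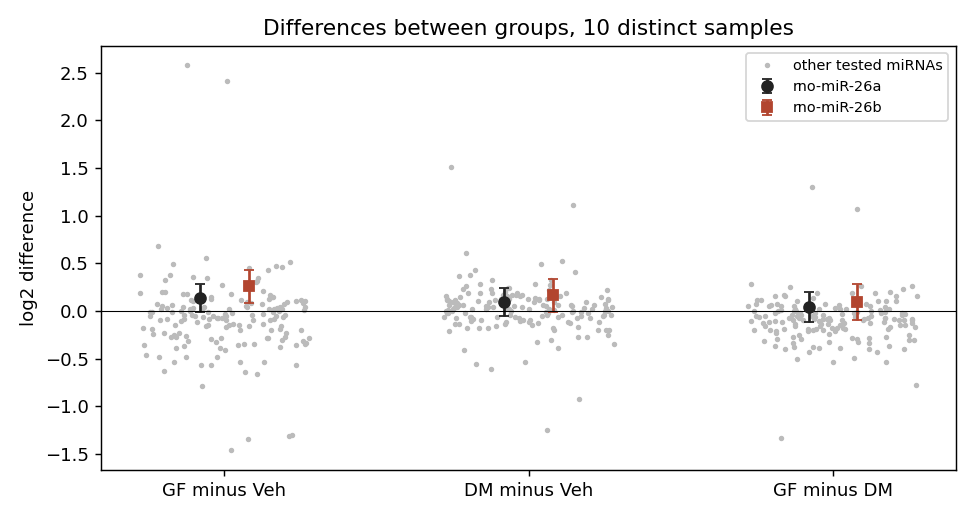
Log2 difference between groups in 10 distinct samples for rno-miR-26a (circles) and rno-miR-26b (squares) with 95% intervals, and for the other tested miRNAs as grey points (spread sideways at random). Both miRNAs lie above 0 in all 3 contrasts, and the interval excludes 0 only for rno-miR-26b in GF minus Veh (0.08 to 0.43).

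Both probes of each miRNA gave the same order of group means. The second probe of miR-26b, A_26_P00001228, averaged 12.88 ± 0.05 in GF, 12.80 ± 0.06 in DM and 12.64 ± 0.09 in Veh samples, a GF minus Veh difference of 0.24 against 0.26 for the first. Its GF samples also lay above all Veh samples. The second probe of miR-26a, A_26_P00001225, averaged 12.66 ± 0.04 in GF, 12.61 ± 0.03 in DM and 12.55 ± 0.07 in Veh samples, a GF minus Veh difference of 0.11. On that probe GF overlapped both other groups: the lowest GF sample was at 12.618, the highest DM sample at 12.631 and the highest Veh sample at 12.64. The separation of GF from Veh and from DM for miR-26a therefore held on 1 of its 2 probes. On the brighter probe the separation from DM did not hold under every scaling. With the 75th percentile over all probes, GF replicates 1 and 5 were at 13.815 and DM replicates 2 and 4 at 13.822. With hur control spots the same samples were at 13.74 and 13.78.

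**Figure D3:**
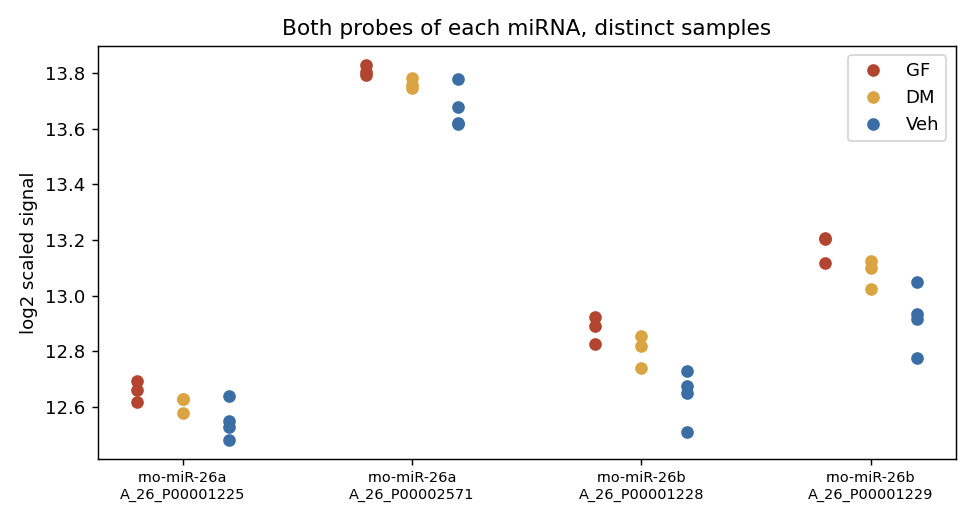
Log2 scaled signal of the 2 probes of rno-miR-26a and the 2 probes of rno-miR-26b in distinct samples of GF, DM and Veh; levels of different probes are not comparable. GF lies above every Veh sample on 3 of the 4 probes, the exception being A_26_P00001225.

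Because the scaling is shared by both miRNAs of an array, their difference within an array does not depend on it. miR-26a minus miR-26b was 0.62, 0.59 and 0.67 in GF, 0.65, 0.73 and 0.66 in DM, and 0.68, 0.84, 0.76 and 0.73 in Veh samples. All 3 GF values lay below all 4 Veh values, and DM overlapped both groups. The mean was 0.63 ± 0.04 in GF and 0.75 ± 0.07 in Veh (SD, n = 3 and 4), a difference of -0.12. The two-sided exact permutation p was 0.0571, which is the smallest that 3 against 4 samples allow, and 0.171 after Benjamini-Hochberg adjustment over the 3 contrasts. DM minus Veh was -0.07 (exact permutation p 0.171, adjusted 0.257), and GF minus DM was -0.05 (exact permutation p 0.300, adjusted 0.300, smallest possible 0.100). No p under 0.05 can come from this permutation test with these numbers of samples.

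In each of the 5 array pairs counted as 1 sample, one array lay on slide 1 and the other on slide 2. Their differences describe the spread of the pair between slides, in arrays that were matched because they differed little, so they may understate it. Slide and scan date coincide. miR-26b was higher on slide 1 in 5 of 5 array pairs, by 0.16 and 0.09 in GF, 0.14 and 0.09 in DM, and 0.15 in Veh, a mean of 0.13 ± 0.03 (SD, n = 5). miR-26a was higher on slide 1 in 4 of 5 array pairs, by 0.07 and 0.02 in GF, 0.11 and -0.01 in DM, and 0.03 in Veh, a mean of 0.04 ± 0.05. Over all 165 tested miRNAs the median of these means was 0.04, with 46 miRNAs higher on slide 1 in all 5 array pairs and 8 lower in all 5, and miR-26b ranked 13th from the top. The shift of miR-26b between slides, 0.13, is to be read beside its GF minus Veh difference of 0.26.

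Each group had arrays on both slides. Within slide 1, miR-26b differed between GF and Veh by 0.38 (2 and 2 arrays, means 13.27 and 12.89), and within slide 2 by 0.19 (3 and 3 arrays, means 13.13 and 12.94). miR-26a differed by 0.21 on slide 1 and by 0.11 on slide 2. GF was above Veh for both miRNAs within each slide, and neither slide alone gave a call (limma adjusted p 0.128 and 0.163 for miR-26b, 0.246 and 0.390 for miR-26a). With slide as a block over the 15 arrays the differences were 0.27 for miR-26b and 0.15 for miR-26a, with limma adjusted p of 0.00617 and 0.0253. That fit also counts the close array pairs as separate samples, and it called 57 of the 165 tested miRNAs. With the sample as a random block over the 15 arrays, limma called 17, and neither miRNA of the pair was among them.

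**Figure D4:**
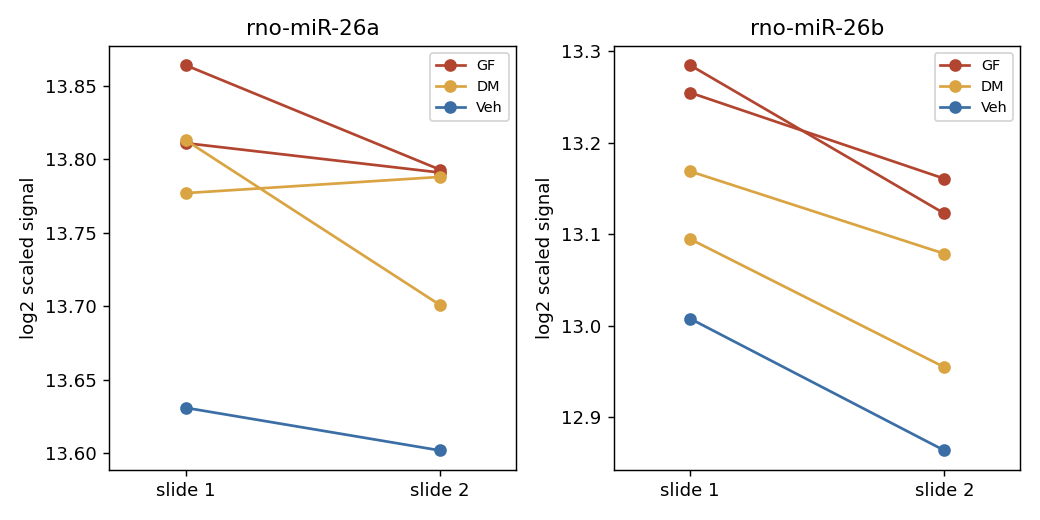
Log2 scaled signal of rno-miR-26a and rno-miR-26b for the 5 array pairs counted as 1 sample each, with a line joining the 2 arrays of a pair and colours for GF, DM and Veh; the vertical axes do not start at 0. Every line of rno-miR-26b falls towards slide 2, by 0.09 to 0.16, while 1 of 5 lines of rno-miR-26a rises.

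The spread between replicates was small for both. The SD within groups was 0.05 for miR-26a, the second lowest of the 165 tested miRNAs, and 0.08 for miR-26b, the 19th lowest, against a median of 0.15. Over all 10 samples the SD was 0.08 for miR-26a (14th lowest) and 0.14 for miR-26b (56th lowest), against a median of 0.18.

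Veh replicate 5, the Veh array nearest to a DM array, stood highest among Veh samples for both miRNAs. Without it, miR-26b differed between GF and Veh by 0.30, with a limma adjusted p of 0.0275, and it passed the threshold, as did 17% of the tested miRNAs (28 of 165). Without it miR-26a differed by 0.17 between GF and Veh (limma adjusted p 0.100), and DM minus Veh was 0.21 for miR-26b and 0.12 for miR-26a (limma adjusted p 0.186 and 0.256), with no call. The difference within an array was then -0.13 in GF minus Veh (exact permutation p 0.100, a floor set by 3 samples in each group). Leaving out each of the other samples gave 0.21 at the lowest. The authors' deposited table of 35 miRNAs with an uncorrected 3-group p-value lists miR-26b (p 0.0261) and not miR-26a. In the authors' deposited table the log2 change of miR-26b was 0.60 for GF against Veh, 0.12 for DM against Veh and -0.48 for DM against GF. The authors' deposited tables also list miR-26b among the 20 miRNAs of GF against DM and the 30 of GF against Veh, and not among the 5 of DM against Veh. Those values carry no scaling between arrays. Refitted over the distinct samples without scaling, miR-26b differed by 0.58 between GF and Veh and miR-26a by 0.46, while the median over all tested miRNAs was 0.25. Relative to that median the unscaled differences were 0.33 for miR-26b and 0.21 for miR-26a, beside 0.31 and 0.19 for the scaled values relative to their own median of -0.05. Without scaling, GF replicates 1 and 5 were at 13.77 for miR-26a, below Veh replicates 4 and 5 at 13.79 and 13.79, so the groups overlapped.

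**Figure D5:**
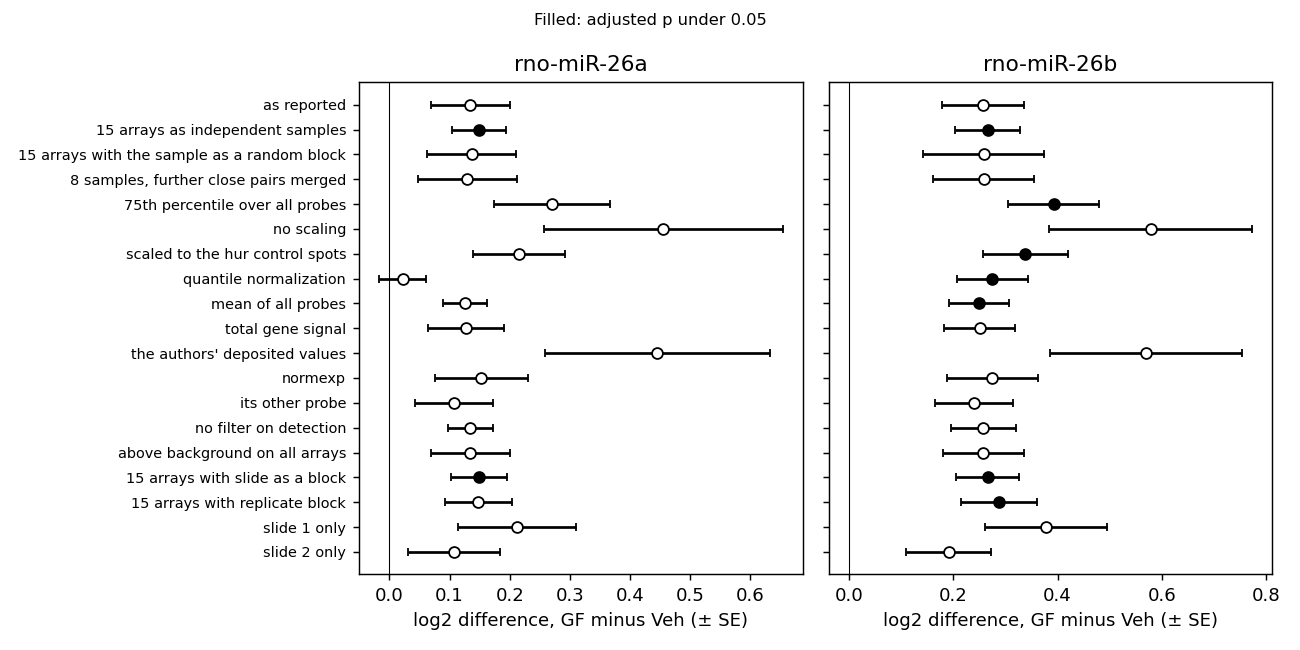
Log2 difference between GF and Veh (± SE) for rno-miR-26a and rno-miR-26b under each single change of the processing, with filled points where limma's adjusted p is under 0.05. Every value lies above 0, from 0.02 for rno-miR-26a with quantile normalization to 0.58 for rno-miR-26b with no scaling.

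The miRNAs whose levels ran most like miR-26b over the 10 samples were miR-101a (Pearson r 0.957), miR-26a (0.918), miR-29a (0.911), miR-326 (0.900) and miR-200c (0.896). For miR-26a they were miR-26b (0.918), miR-500 (0.910), miR-326 (0.902), miR-200c (0.894) and miR-34a (0.893). These are descriptions over 10 samples that share arrays and scaling. After the group means were taken out, r between miR-26a and miR-26b was 0.75, and r of miR-26b with miR-101a was 0.853. miR-101a, which in human cells represses EZH2, was at 11.22, 11.26 and 11.23 in GF and at 10.84, 10.68, 10.72 and 10.98 in Veh samples, with no overlap. It rose in GF hearts by 0.43 (SE 0.09, limma adjusted p 0.0194). miR-200c, known best from epithelia, rose by 2.58 (SE 0.51, limma adjusted p 0.0194).

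Other miRNAs that share known targets or settings with miR-26 were counted from lists. Of 14 miRNAs linked to Ezh2, 11 were tested (the let-7 family, miR-98, miR-101a, miR-101b and miR-214), and miR-138 was not. Of the 11 tested, 1 rose in GF against Veh, miR-101a, and 0 fell. At an unadjusted limma p under 0.05 there were 3, and over 15 arrays limma called 2 higher and 3 lower. Their median difference was -0.06, against -0.05 over all tested miRNAs. Of 14 miRNAs that limit cardiac fibrosis (the miR-29 and miR-30 families and others), 1 rose, again miR-101a, and 0 fell (4 at an unadjusted p under 0.05; 5 higher and 3 lower over 15 arrays), with a median of 0.06. These counts are to be read beside the 7.88% called among all tested miRNAs, or 36.4% over 15 arrays. Of 11 linked to insulin or glucose, limma called 0 (4 at an unadjusted p under 0.05; 4 higher and 2 lower over 15 arrays), with a median of 0.12. Of 12 miRNAs in common use as references, limma called 0 over distinct samples (3 at an unadjusted p under 0.05; 1 higher and 2 lower over 15 arrays), with a median of -0.09. In DM minus Veh and in GF minus DM, none of these 4 lists had a member called by limma over distinct samples (0 to 2 members each at an unadjusted p under 0.05), and their medians ran from -0.12 to 0.16.

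Of the marker lists, the heart muscle miRNAs lay lower in GF than in Veh hearts in 5 of 5 cases, with a median difference of -0.32. Over all tested miRNAs that median was -0.05. In DM minus Veh, 0 of the 5 lay above 0, with a median of -0.18, and in GF minus DM the median was -0.08. These values are given under the reported scaling only. In GF minus Veh, 1 of them passed the threshold, miR-208, which is encoded in an intron of a cardiac myosin gene. It fell by 1.34 in log2 units (SE 0.28, limma adjusted p 0.0194). The summed log2 signal of the 5 ran from 16.73 to 17.06 on GF arrays and from 16.92 to 17.38 on Veh arrays. The 4 leukocyte miRNAs did not move one way: miR-142-5p fell by 0.64 on the log2 scale (SE 0.16, limma adjusted p 0.0367), while miR-142-3p differed by -0.48, miR-150 by -0.01 and miR-223 by 0.51 (limma adjusted p 0.0887, 0.966 and 0.0611). Over 15 arrays limma called 1 leukocyte miRNA higher and 2 lower. miR-223 then passed the threshold at 0.59 (limma adjusted p 0.00128), and miR-142-3p at -0.52 (limma adjusted p 0.0121). The red cell, endothelial, smooth muscle and neural markers had no call by limma in GF minus Veh over distinct samples. At an unadjusted limma p under 0.05 there were 1 endothelial and 1 neural miRNA. Called lower over 15 arrays were 2 red cell miRNAs and 1 each of the endothelial and neural miRNAs. The summed signal of the 2 red cell miRNAs ran from 12.15 to 12.53 on GF arrays and from 12.58 to 12.84 on Veh arrays. On DM arrays it ran from 11.75 to 12.59. The median difference of the 2 from Veh was -0.35 in GF and -0.58 in DM. The share of all tested miRNAs with GF below every Veh sample was not counted. The part of these shifts in the pair's values was not tested.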

How the data were processed

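Total RNA of rat hearts was labelled with Cy3 and hybridised to one-colour miRNA arrays, per the labels. The array files as deposited give an intensity for every spot, with background subtracted by Agilent Feature Extraction 9.5.3.1 per the file headers, and not scaled between arrays. The authors' deposited tables hold log2 values of 149 filtered miRNAs, relative to the Veh mean with no scaling (recomputed here to within 2.05e-06), and a p-value per miRNA from an uncorrected 3-group test, per the file headers. The software behind those tables is not known here.

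Outlier spots were dropped (153 to 294 rat miRNA spots per array, where an array holds 7953 spots in all). The processed signal was averaged over the remaining spots of a probe. It was then scaled to the 75th percentile over 254 probes above background on all 15 arrays, and floored at 4.30 on the log2 scale (19.7). Over 0.5 of a probe's spots had to exceed background for the probe to count as above it. The brightest probe stood for a miRNA, and 165 miRNAs were tested, those over background on 3 or more of the 5 arrays in any group. Arrays with a reduced chi-square under 1 were averaged, which left 10 samples. Groups were compared with limma 3.58.1 (R 4.3.3; lmFit and eBayes, two-sided, Benjamini-Hochberg within a contrast, threshold 0.05). The difference of the pair within an array was compared with exact permutation tests (scipy 1.17.1). The fit was tested on simulated data. Figures used matplotlib 3.10.9, and tables used numpy 2.4.6 and pandas 2.3.3 under Python 3.11.15. The number of arrays limits the precision, and since the labels name no animals, p-values measure the spread between these samples, which may be technical. normexp was run on the median spot signal.

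The members and lists were chosen with earlier results of these data known. The rule for named miRNAs was the pair with its probes and other arm, the 5 tested miRNAs with the highest r to each, and list members past the threshold; the 10 distinct samples served for r. Alternatives were other scalings, probe summaries, filters, blocks, merges of samples and omission of samples or arrays; the combinations of 15 arrays with another scaling or summary were chosen after the data were seen.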

Additional observations from a re-analysis of the deposited data

How the results depend on the processing

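Of the 46 alternatives tried for each difference, 8 of them added after the data were seen, miR-26b in GF minus Veh stayed above 0 in all, from 0.19 to 0.61, and passed the threshold in 15; miR-26a stayed above 0 in all, from 0.02 to 0.49, and passed in 8. With 1 choice changed, miR-26b passed with 15 arrays (0.27), the 75th percentile over all probes (0.39), hur control spots (0.34), quantile normalization (0.28), the mean of all probes (0.25), the slide block (0.27) and the replicate block (0.29), and without Veh replicate 5 (0.30). miR-26a passed with 15 arrays and the slide block (0.15 each). The added alternatives combine 15 arrays with another scaling or summary. There miR-26b passed with no scaling (0.61), the authors' deposited values (0.60), quantile normalization (0.29), the 75th percentile over all probes (0.37), normexp (0.28), the mean of all probes (0.26) and total gene signal (0.25), and did not with hur control spots (0.31, limma adjusted p 0.0721). miR-26a passed with no scaling (0.49), the authors' deposited values (0.48), the 75th percentile over all probes (0.25), normexp (0.17), the mean of all probes (0.138) and total gene signal (0.135). The scalings to all probes, to hur control spots and to none turned most calls upward (15 of 16, 14 of 15 and 16 of 18 higher, beside 5 of 13 as reported). Further close pairs of 1 group, with a reduced chi-square under 1.28, were also merged, which left 8 samples. That merge gave 0.26 for miR-26b and 0.13 for miR-26a, with limma adjusted p of 0.167 and 0.378. miR-26a in DM minus Veh turned to -0.036 with no scaling, -0.022 with quantile normalization (-0.018 with 15 arrays) and -0.047 with the authors' deposited values. No scaling moved the median of all tested miRNAs in GF minus Veh to 0.25, and the cause of these changes was not tested. With 15 arrays the difference within an array of GF minus Veh was -0.12, with an unadjusted exact permutation p of 0.0317. That p lies under the threshold only before adjustment over the contrasts, and no adjusted value is given for it. It also counts the close array pairs as separate samples. Leaving out a sample or an array gave 0.21 to 0.30 for miR-26b and 0.12 to 0.17 for miR-26a in GF minus Veh.

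The number of miRNAs called in GF minus Veh, 13 as reported, was 60 with 15 arrays, 57 with the slide block, 50 with the replicate block, 2 with the authors' deposited values, 0 with 8 samples (35 at an unadjusted p under 0.05) and 0 with no detection filter (46). With 15 arrays it was 30 with no scaling, 26 with hur control spots, 35 with the authors' deposited values, 62 with quantile normalization, 41 with the 75th percentile over all probes, 37 with normexp, 55 when all probes were averaged and 66 from total gene signal. Omissions gave 0 to 28, with 0 without Veh replicates 1 and 3, Veh replicate 2, Veh replicate 4 or GF replicates 2 and 4, and 28 without Veh replicate 5. In DM minus Veh, 0 as reported, it was 3 with 15 arrays, 3 with the slide block and 4 with the replicate block, with omissions from 0 to 2, and with 15 arrays 3, 7, 5, 12, 5, 1, 4 and 13 in the order of settings just given. In GF minus DM, 0 as reported, it was 6, 5 and 1 with those fits, 1 with no scaling and 1 with normexp, with omissions from 0 to 6, and with 15 arrays 7, 0, 4, 11, 0, 11, 7 and 4 in that order. With 15 arrays and the replicate block, miR-26a in GF minus Veh was 0.15 (limma adjusted p 0.0738), and the block changed no other call of the pair. Same-numbered arrays of different groups had a median correlation of deviations of 0.06 over 13 pairs, from -0.53 to 0.47. Over 62 pairs with different numbers the median was -0.03, from -0.54 to 0.60. Arrays counted as 1 sample carry different numbers, so these values cannot decide whether the numbers pair the samples.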
